A study of Mus musculus with 2 samples.

Results

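The NFAT transcription factors, the phosphatase calcineurin that activates them and the calcium entry proteins that activate calcineurin were measured in GFP-positive and GFP-negative CD4+ T cells of DEREG mice. The members were 10 genes listed by function: Nfatc1, Nfatc2, Nfatc3, Nfat5, Ppp3ca, Ppp3cb, Ppp3r1, Rcan1, Stim1 and Orai1. Every probe set annotated to exactly 1 of these symbols was taken, which gave 35 probe sets of the 34945 with 1 symbol, and 10 genes of 18193. A probe set is a group of short probes for 1 transcript or transcript family on an Affymetrix Mouse Genome 430 array.

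Both populations came from mice of the DEREG strain, in which the Foxp3 promoter drives GFP, so both carry the transgene. The GFP-positive group is labelled Foxp3-positive and the GFP-negative group Foxp3-negative, and each is 1 array. Other cells were depleted before the sort, whose stated purity was above 99%. Foxp3 is the transcription factor of regulatory T cells, so by the labels the comparison sets regulatory T cells against the other CD4+ T cells. The sources used here give neither the age and number of the mice nor the organ, any treatment or any pooling. With 1 array per group there is no test and no error between animals, and every difference is between these 2 arrays.

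When a T cell receptor is engaged, calcium leaves the endoplasmic reticulum. STIM1 senses the emptied store and opens ORAI1, the channel of the plasma membrane through which calcium then enters. Calcium and calmodulin switch on calcineurin, which removes phosphates from NFAT proteins so that they enter the nucleus. There NFAT binds DNA with partner factors such as AP-1, and in regulatory T cells also with Foxp3.

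Signals are in the arbitrary linear units of the deposited table. Without detection calls, a signal floor of 68.38 was used, the 90th percentile of probe sets for genes restricted to other tissues. A probe set counts as measured if at least 1 of its 2 signals lies above the floor. A difference is the log2 signal of GFP-positive cells less that of GFP-negative cells, with signals under the floor raised to it, and a fold with 1 signal under the floor is a bound. The direction of such a bound is fixed by which array is above the floor. A gene is represented by its brightest probe set. All probes report RNA of bulk populations, so fewer expressing cells and less RNA per cell cannot be told apart. As a yardstick, the differences given by several probe sets for 1 gene had a within-gene SD of 0.39 log2 (7678 probe sets of 3042 genes), which holds no variation between animals or sorts.

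Foxp3 gave signals of 504.4 in GFP-positive cells against 173.2 in GFP-negative cells, in the direction of the labels. Both signals lie above the floor, so Foxp3 also counts as measured in the cells labelled Foxp3-negative. On the GFP-positive and GFP-negative arrays, 1 and 3 of the 63 tissue-restricted genes behind the floor reached the Foxp3 signal. The T cell markers were above the floor on both arrays for all 9 genes with a probe set, and 7 of them were lower in GFP-positive cells, with a median of −0.23 log2. Of the B cell markers, 3 of 10 were above the floor on each array, and their summed signals were 2416 in GFP-positive cells against 4688 in GFP-negative cells, while Cd79a, Ms4a1 and Pax5 were below the floor on both. Most of that sum was 1 probe set of Ighm (1880.7 and 4139.0), whose 7 other measured probe sets went both ways, from −1.23 to 0.62 log2. Cd22 was lower too, with 98.3 in GFP-positive cells against 235.1 in GFP-negative cells. Cd79b went the other way, with 221.9 in GFP-positive cells against 70.8 in GFP-negative cells. Myeloid and dendritic cell markers were above the floor for 2 of 11 genes on each array, CD8 and NK cell markers for 4 of 9 on each, and erythroid and platelet markers for 1 and 2 of 7. The 3′ to 5′ signal ratio, a measure of RNA integrity that is higher in degraded RNA, was 5.30 and 3.57 for Actb and 9.27 and 6.24 for Gapdh in GFP-positive and GFP-negative cells. The part of these values in the member differences was not tested.

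Nfatc1 had the largest difference of the 10 members and was lower in GFP-positive cells, and Nfatc2 and Nfatc3 were lower by smaller amounts. The probe sets of the calcineurin subunit genes among the members, and those of Nfat5, Stim1 and Orai1, did not go 1 way within a gene. Of the 10 members, 0 were at least 2-fold lower and 0 at least 2-fold higher, beside 1.59% and 1.56% of the 9766 genes measured. At least 1.5-fold lower was 1 member, Nfatc1, beside 7.53% of all genes. By any amount 9 were lower and 1 higher from the brightest probe sets, while 51.7% of all genes were lower. The 9 include Stim1, whose direction was fixed by the floor. They also include Ppp3cb and Orai1, whose differences of −0.04 and −0.01 log2 were close to equal signals. In 1 processing choice, the median of genes with both signals over the floor was set to 0. That moved the median of all measured genes to 0.02, turned Ppp3cb and Orai1 positive and left 7 members lower. Before that shift, the median difference of the members was −0.36 log2, beside −0.01 over all genes. It was −0.08 when the probe sets of each gene were averaged, with 7 of 10 members lower.

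**Figure D1:**
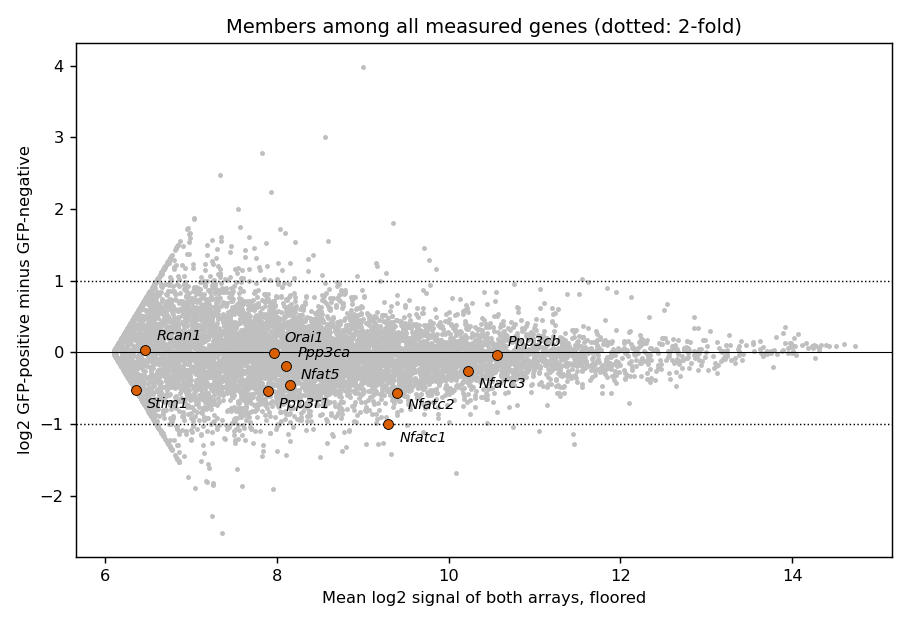
Each grey point is 1 of the 9766 measured genes and each orange point 1 of the 10 members, with the mean log2 signal of both arrays on the x axis and the log2 difference, GFP-positive minus GFP-negative, on the y axis. Dotted lines mark 2-fold, and Nfatc1 lies at the lower line while Rcan1, Ppp3cb and Orai1 lie near 0.

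Nfatc1 encodes NFATc1, also called NFAT2, a factor that T cells induce after activation and that can act on its own gene. Its brightest probe set, 1417621_at, had a signal of 445.2 in GFP-positive cells against 888.9 in GFP-negative cells, a difference of −0.998 log2. That is 1.997-fold lower, just short of the 2-fold rule. Of all measured genes, 1.59% had a lower difference. The 1425761_a_at probe set gave 86.2 and 224.0, which is 2.60-fold lower and the only member probe set past 2-fold in either direction. Of all measured probe sets, 1.51% were at least 2-fold lower and 1.8% at least 2-fold higher. The 1428479_at probe set gave 330.9 and 511.0, or 1.54-fold lower. The 1447085_s_at probe set, whose suffix marks probes that can match several transcripts, gave 138.2 and 216.5, or 1.57-fold lower. The 1447084_at probe set was above the floor only in GFP-negative cells, with 54.6 and 78.2, and was at least 1.14-fold lower.

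All 5 Nfatc1 probe sets were thus lower in GFP-positive cells, from −1.38 to −0.19 log2 with a median of −0.65. The direction of 1447084_at was fixed by the floor, since only its GFP-negative signal lay above it. In a count chosen after these values were seen, 598 genes had 4 or more measured probe sets, and for 6.19% of them all were lower. For 2 of these genes, or 0.334%, the median was also at or below that of Nfatc1. These were Gsn, which encodes the actin-severing protein gelsolin, and Nfatc1, which set the cutoff and so is counted by construction. That share is therefore no measure of how rare the Nfatc1 values are.

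**Figure D2:**
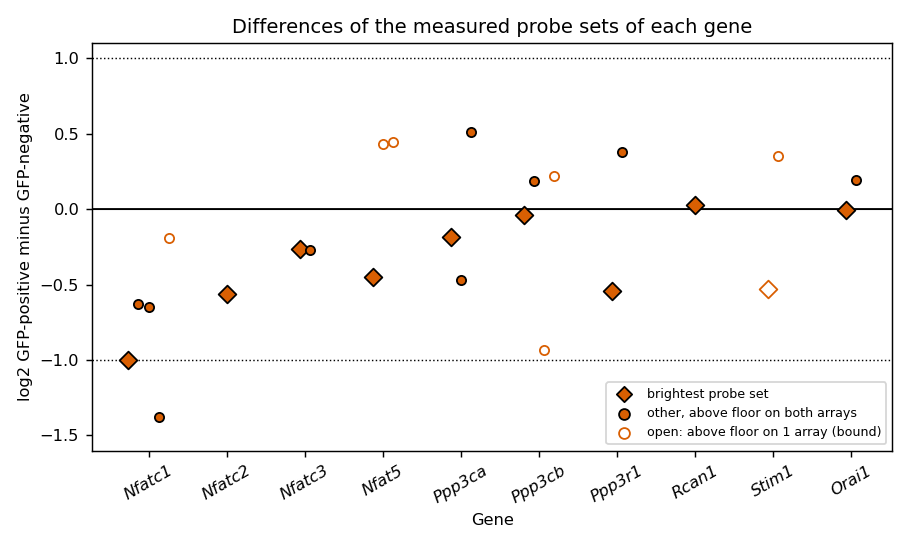
Each symbol is the log2 difference, GFP-positive minus GFP-negative, of 1 of the 25 measured member probe sets, by gene, with diamonds for the brightest probe set and open symbols where 1 signal was below the floor, so that the value is a bound. The 5 Nfatc1 symbols all lie below 0, and those of Nfat5, Ppp3ca, Ppp3cb, Ppp3r1, Stim1 and Orai1 lie on both sides.

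Nfatc2 encodes NFATc2, also called NFAT1, which resting T cells already hold in the cytoplasm and which binds DNA together with Foxp3. Its 1439205_at probe set had signals of 555.2 in GFP-positive cells against 820.5 in GFP-negative cells, 1.48-fold lower or −0.56 log2. Of all genes, 8.15% had a lower difference. The other 5 Nfatc2 probe sets were below the floor on both arrays, with signals from 2.8 to 63.7, so that the gene's difference rests on 1 probe set. RefSeq gives Nfatc2 more than 1 start, and both windows held here are shown because they flank the starts of the family member that pairs with Foxp3. Capitals mark GGAAA and its reverse complement TTTCC, the core letters of NFAT sites, searched on both strands with no other motif. Each window runs from 250 bases before to 50 after a start (RefSeq, build GRCm38.p6, minus strand), the upstream one at chr2:168601608-168601907 and the downstream one at chr2:168590316-168590615.
Nfatc2 upstream start: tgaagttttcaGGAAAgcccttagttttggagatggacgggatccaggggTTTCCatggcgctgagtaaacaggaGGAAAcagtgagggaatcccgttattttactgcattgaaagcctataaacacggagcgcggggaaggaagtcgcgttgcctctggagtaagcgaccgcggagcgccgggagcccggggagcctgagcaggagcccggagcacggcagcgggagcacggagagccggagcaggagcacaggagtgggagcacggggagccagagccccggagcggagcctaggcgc
Nfatc2 downstream start: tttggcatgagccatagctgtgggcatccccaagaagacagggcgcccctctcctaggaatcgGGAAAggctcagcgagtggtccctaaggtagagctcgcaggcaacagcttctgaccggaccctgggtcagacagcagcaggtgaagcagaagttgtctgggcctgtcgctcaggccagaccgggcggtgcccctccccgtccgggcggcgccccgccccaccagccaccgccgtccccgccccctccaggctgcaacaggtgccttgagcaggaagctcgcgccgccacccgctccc
The upstream window held 3 such matches, starting at −239, −200 and −175 from the gene start, and the downstream window 1, at −187. At least 3 matches were in 9.42% of all 32851 windows of 300 bases. A match is a description of the letters only, and the arrays do not tell the starts apart here.

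Nfatc3 encodes NFATc3, also called NFAT4, a family member of thymocytes and mature T cells. The 1419976_s_at probe set had signals of 1089.6 in GFP-positive cells against 1309.2 in GFP-negative cells, and 1452497_a_at had 408.0 and 491.3. Both were 1.20-fold lower, at −0.26 and −0.27 log2, and 24.7% of all genes had a lower difference than the brightest. Both Nfatc3 probe sets gave almost the same size, but that size is within the 0.39 log2 yardstick.

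Nfat5 encodes the family member that responds to osmotic stress and lacks the calcineurin docking region of the others. Its brightest probe set, 1438999_a_at, had signals of 242.9 in GFP-positive cells against 332.3 in GFP-negative cells, 1.37-fold lower. The 1439328_at and 1439805_at probe sets went the other way, with 92.2 and 60.5 and with 93.1 and 39.1, which makes them at least 1.35-fold and at least 1.36-fold higher. The other 3 Nfat5 probe sets had signals from 4.5 to 32.8, below the floor on both arrays. Averaged over its measured probe sets, the Nfat5 difference was 0.14 log2, against −0.45 from the brightest.

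Of the probe sets of Nfatc1, Nfatc2 and Nfatc3, the calcineurin-responsive members, 8 of 8 measured were lower in GFP-positive cells. For the other 7 members, 8 of 17 measured probe sets were lower and 9 higher. Over all measured probe sets of the array 49.6% were lower. This split was made after the values were seen and has no test. Probe sets of 1 gene are not replicates, and 5 of the 8 were of Nfatc1. Of the 25 measured member probe sets, 7 were above the floor on 1 array only, so their direction was fixed by the floor. They belong to Nfatc1, Nfat5, Ppp3cb and Stim1 and lie on both sides. By the brightest probe set of each gene, every member but Rcan1 was lower, Stim1 only as a bound.

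**Figure D3:**
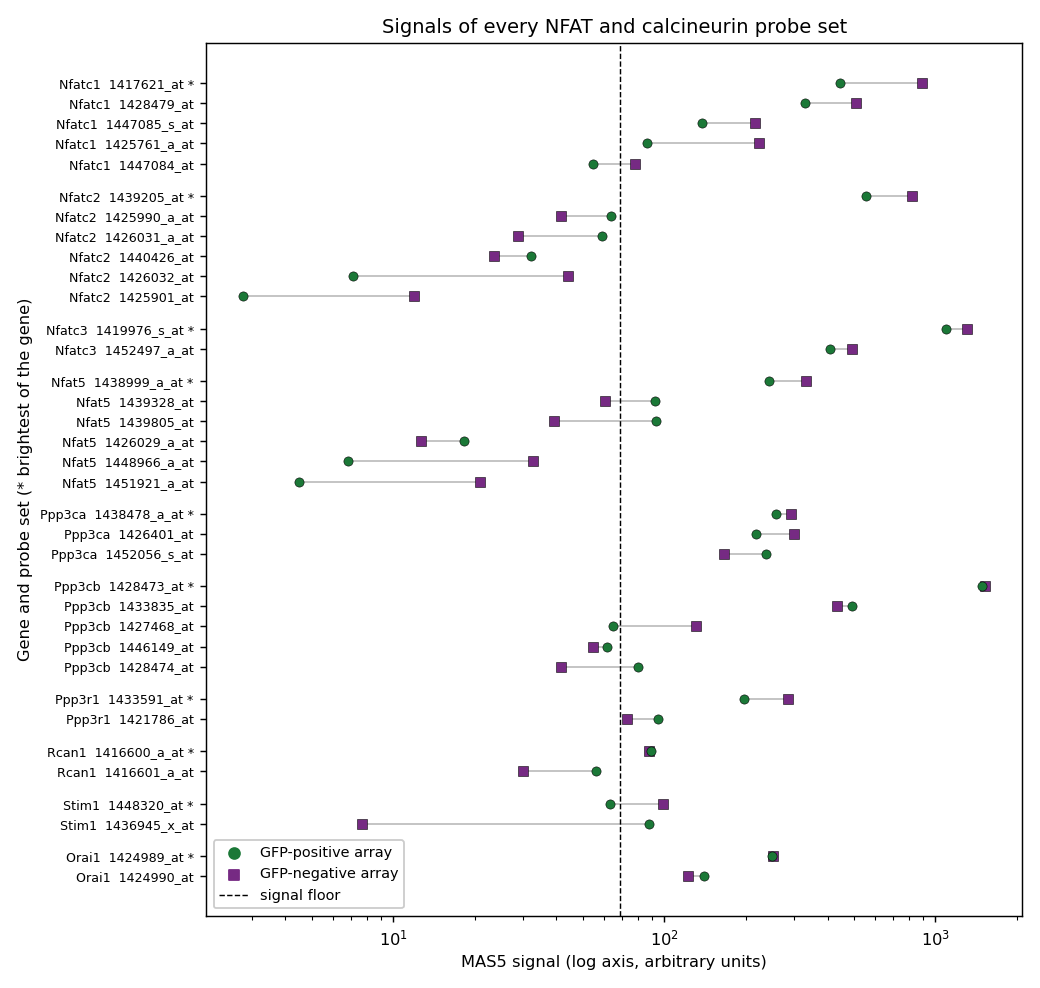
Signals of all 35 member probe sets on the GFP-positive array (green circles) and the GFP-negative array (purple squares), on a log axis in arbitrary units, with the floor of 68.38 as a dashed line and the brightest probe set of each gene starred. Of the 35, 18 lie above the floor on both arrays, 7 on 1 array and 10 on neither.

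Calcineurin is made of a catalytic A subunit and a calcium-binding B subunit. Ppp3ca encodes the alpha form of the catalytic subunit, and its 3 probe sets were above the floor on both arrays. The 1438478_a_at probe set had signals of 258.8 in GFP-positive cells against 294.2 in GFP-negative cells, or 1.14-fold lower, and 1426401_at had 217.2 and 300.9, or 1.39-fold lower. The 1452056_s_at probe set was 1.43-fold higher, with 236.8 and 166.0. The Ppp3ca probe sets therefore give no single direction.

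Ppp3cb encodes the beta form of the catalytic subunit, the form known for its role in T cells. Its brightest probe set, 1428473_at, had signals of 1489.7 in GFP-positive cells against 1527.6 in GFP-negative cells, a difference of −0.04 log2 that turned to 0.01 after loess. The 1433835_at probe set had 492.4 and 433.1, or 1.14-fold higher. The 1427468_at probe set was at least 1.91-fold lower (64.9 and 130.5), and 1428474_at at least 1.16-fold higher (79.6 and 41.5). The 1446149_at probe set was below the floor on both arrays. The 2 Ppp3cb probe sets above the floor on both arrays were thus close to equal, and the larger differences came from probe sets close to the floor.

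Ppp3r1 encodes a form of the regulatory B subunit, which the catalytic subunit needs. The 1433591_at probe set had signals of 196.8 in GFP-positive cells against 286.5 in GFP-negative cells, 1.46-fold lower, and 8.94% of all genes had a lower difference. The dimmer 1421786_at probe set was higher by 0.38 log2, with 94.9 and 73.1. Averaged, they gave −0.08 log2. Over the 3 subunit genes among the members, 5 of 9 measured probe sets were lower in GFP-positive cells and 4 higher.

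Rcan1 encodes a protein that binds and inhibits calcineurin, and its shorter isoform is transcribed from an internal start that NFAT activates, so its level is widely used as a readout of calcineurin activity. The 1416600_a_at probe set had signals of 89.3 in GFP-positive cells against 87.5 in GFP-negative cells, a difference of 0.03 log2 that became −0.08 after quantile normalization and −0.06 after loess. On each array, 4 of the 63 genes behind the floor reached the Rcan1 signal. The 1416601_a_at probe set gave 55.8 and 30.1, below the floor on both arrays. The brightest Rcan1 probe set was therefore close to the floor and nearly equal on both arrays. Nothing about calcineurin activity is drawn from it. Its pair of start windows is shown because the internal start is the textbook NFAT-responsive one. Both lie on the minus strand (RefSeq, build GRCm38.p6), the upstream start at chr16:92466120-92466419 and the internal start at chr16:92400029-92400328, with capitals as for Nfatc2.
Rcan1 upstream start: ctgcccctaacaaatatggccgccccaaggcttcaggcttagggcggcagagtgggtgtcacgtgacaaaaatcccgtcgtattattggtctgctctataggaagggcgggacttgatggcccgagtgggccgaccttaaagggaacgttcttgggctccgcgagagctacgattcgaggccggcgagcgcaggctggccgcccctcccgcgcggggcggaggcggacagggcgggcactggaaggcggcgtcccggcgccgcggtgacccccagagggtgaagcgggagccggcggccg
Rcan1 internal start: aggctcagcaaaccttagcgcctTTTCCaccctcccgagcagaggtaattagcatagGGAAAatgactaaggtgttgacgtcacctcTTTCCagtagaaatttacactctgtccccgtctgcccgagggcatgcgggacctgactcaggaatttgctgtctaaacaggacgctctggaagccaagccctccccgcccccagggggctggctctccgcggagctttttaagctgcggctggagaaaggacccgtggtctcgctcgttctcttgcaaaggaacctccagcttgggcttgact
The internal window held 3 matches to GGAAA or its reverse complement, at −227, −193 and −163 from the start, and the upstream window 0. Among all windows of this length 61.3% held at least 1 match and 9.42% at least 3. Of the 11 windows of the 8 members with a window in the RefSeq table, 6 held a match, and those of Ppp3r1, Stim1 and Orai1 held 0. The most matches were in the window of Ppp3cb, with 4, and at least 4 were in 2.65% of all windows. The table does not say which start the Rcan1 probe sets report.

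Stim1 encodes the calcium sensor of the endoplasmic reticulum. The 1448320_at probe set had signals of 63.0 in GFP-positive cells against 98.6 in GFP-negative cells and was at least 1.44-fold lower. The 1436945_x_at probe set, whose probes can match several transcripts, was at least 1.28-fold higher, with 87.5 and 7.7. Each Stim1 probe set was above the floor on 1 array, and not the same array. Of the 63 genes behind the floor, 11 reached the Stim1 signal in GFP-positive cells and 4 in GFP-negative cells, so that no direction is drawn for Stim1.

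Orai1 encodes the pore of the calcium release-activated channel. The 1424989_at probe set had signals of 249.4 in GFP-positive cells against 250.6 in GFP-negative cells, and 1424990_at had 140.2 and 122.4, or 1.15-fold higher. The difference of the brightest was −0.01 log2. It became 0.03 with the median of genes with both signals over the floor set to 0. Orai1 was thus close to equal on both arrays.

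Of the 8 members with at least 2 measured probe sets, Nfatc1 and Nfatc3 had all of them on 1 side, and the other 6 had them on both. Of all 4018 such genes, 56.4% had probe sets on both sides.

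Genes that carry the receptor signal to calcium entry went both ways. Of 18 measured genes of upstream calcium signalling, 12 were lower and 6 higher, with 0 past 2-fold. Over all measured genes, 51.7% were lower, with 1.59% and 1.56% at least 2-fold lower and higher. The list median was −0.21 log2 and became −0.06 with probe sets averaged. Itpr3, which encodes an endoplasmic reticulum calcium release channel, had signals of 213.1 and 290.6 in GFP-positive and GFP-negative cells, a difference of −0.45 log2. Atp2a3, which encodes the SERCA3 pump that refills the store, was higher at 356.3 and 234.7 (0.60 log2). Trpm7, an ion channel with a kinase domain, had 541.0 and 318.4 (0.76 log2), but its 3 other measured probe sets gave 0.01 to 0.21.

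Among other calcineurin subunits, partners and inhibitors, 4 of 5 measured genes were lower and 1 higher, with 0 past 2-fold. Their median was −0.21 log2. The shares over all measured genes were 51.7% lower by any amount, and 1.59% and 1.56% at least 2-fold lower and higher. Ppp3cc, which encodes the gamma form of the catalytic subunit, had signals of 533.0 in GFP-positive cells against 838.6 in GFP-negative cells, 1.57-fold lower. Its other probe set was lower too, by −0.50 log2. Rcan3, a relative of Rcan1, had 125.6 and 151.7 (−0.27 log2). Cabin1, which encodes a calcineurin-binding inhibitor, had 123.0 and 142.4 (−0.21 log2), with another probe set at 0.19. Ppp3r2 and Rcan2 were below the floor on both arrays.

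Genes of NFAT kinases and nuclear transport went both ways, with 3 of 13 measured lower, 10 higher and 0 past 2-fold. By comparison, 51.7% of all measured genes were lower, and 1.59% and 1.56% were at least 2-fold lower and higher. The median of this list was 0.07 log2. The largest difference was that of Csnk1e, a casein kinase gene named after its values were seen, with 61.4 in GFP-positive cells against 121.7 in GFP-negative cells, at least 1.78-fold lower. Gsk3b, which encodes a kinase that promotes NFAT export from the nucleus, had signals of 279.4 and 403.4 (−0.53 log2), but its 5 other measured probe sets ranged from −0.17 to 0.76. Its relative Gsk3a had 348.2 and 315.7 (0.14 log2). Csnk1d, which encodes a casein kinase of the type that phosphorylates NFAT, had 3590.3 and 4299.3 (−0.26 log2), with 4 other probe sets from −0.44 to 0.21. Nfatc4, the remaining calcineurin-responsive NFAT gene, was below the floor on both arrays.

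Genes known as NFAT targets went both ways. Of 20 measured, 11 were lower and 9 higher in GFP-positive cells, with a median of −0.05 log2 that ranged from −0.17 to 0.14 over the processing choices. The 3 genes at least 2-fold lower were Ifng, Pdcd1 and Tnf, and 0 were at least 2-fold higher. Of all measured genes, 1.59% and 1.56% passed these rules, and 51.7% were lower by any amount. Ifng, the type 1 helper cytokine gene, had signals of 315.9 in GFP-positive cells against 667.3 in GFP-negative cells, and Pdcd1, which encodes PD-1, had 236.8 and 494.2. Tnf had 52.7 and 139.0, at least 2.03-fold lower, a bound that shrank to −0.02 log2 with the floor doubled. Ctla4, which encodes an inhibitory receptor of regulatory T cells, went the other way with 2419.6 and 1244.3 (0.96 log2). Il2, named outside the rule as the classical NFAT target, had 103.2 and 130.7.

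**Figure D4:**
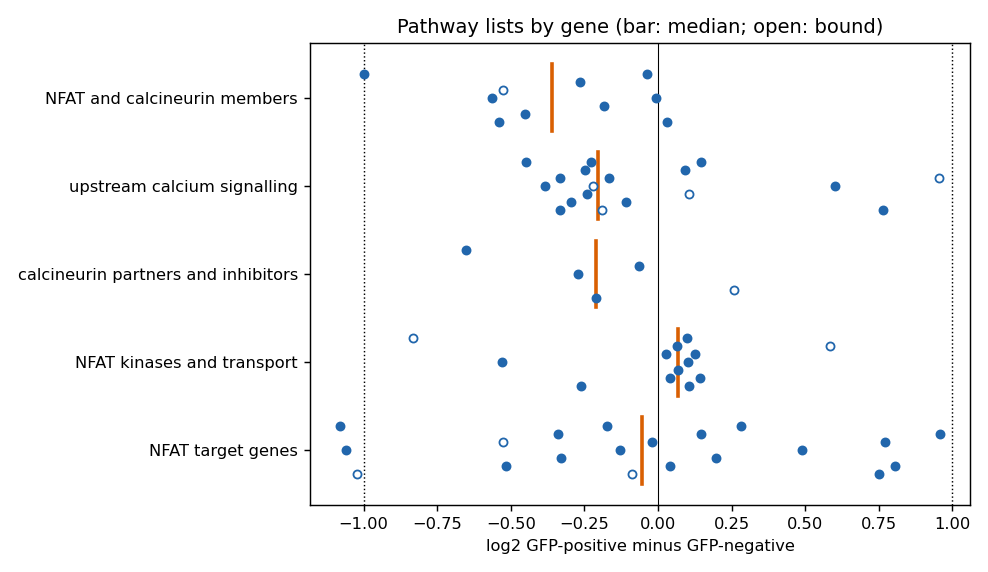
Each point is a measured gene of the members or of 1 of the 4 pathway lists, with its log2 difference, GFP-positive minus GFP-negative, on the x axis, the list median as an orange bar, and open points where 1 signal was below the floor. The medians are −0.36 for the members, −0.21, −0.21 and 0.07 for the next 3 lists and −0.05 for the NFAT targets, whose points spread farthest on both sides.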

How the data were processed

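Expression in the sorted cells was measured on 2 arrays, 1 per group, grouped by their titles. The deposited values are 1 linear intensity per probe set and array. The submitters' processing notes name MAS5, and the sources used here give no version, background settings or detection calls. From the values, both arrays had a 2% trimmed mean of 150.0, and no further scaling was applied. Probe sets with several symbols (932) or none were left out of gene comparisons, and symbols were updated through gene identifiers. The floor came from 106 probe sets of 63 tissue-restricted genes. With 1 array per group no test was run, and the number of arrays limits the precision. Members and lists were chosen with earlier results of these data known. All members were named; each pathway list gave its genes past 2-fold and the 3 largest differences above the floor on both arrays. Genes named outside this rule are Il2, Gsn, Csnk1e, Ighm, Cd22, Cd79b, the genes said to be below the floor, and those of the closing section. Motif matches used RefSeq windows of 300 bases. Python 3.11.15, pandas 2.3.3 and statsmodels 0.14.6 were used. The steps were tested on simulated data with planted differences larger than those of the members, in genes well above the floor. Smaller differences were not covered by that test. Floors, scalings, probe set rules and folds were varied.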

Additional observations from a re-analysis of the deposited data

How the results depend on the processing

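Of 11 processing choices, those that changed only the fold recomputed no member difference. From the others, 11 of the 88 recomputed member differences changed sign, in Nfat5, Ppp3cb, Rcan1 and Orai1. By more than the 0.39 log2 yardstick, 7 of the 88 moved. All 7 came from averaging probe sets: Nfatc2 (−0.09), Nfat5 (0.07, or 0.14 over measured probe sets), and Ppp3r1 (−0.08) and Stim1 (−0.09) under both kinds of averaging. Probe sets under the floor enter the average over all probe sets with a difference of 0, which is what shrinks Nfatc2. Over the settings that gave a value, Nfatc1 ranged from −0.998 to −0.77 and Nfatc3 from −0.27 to −0.21. With the floor doubled, Rcan1 and Stim1 had no signal above it and gave no value. The count of members at least 2-fold lower was 0 under every floor, scaling and probe set rule and 1, Nfatc1, when the fold was 1.5, which 7.53% of all genes passed. Between 7 and 9 members, and between 13 and 20 of their probe sets, were lower. The 20 came without a floor, when all 35 probe sets counted. Among pathway genes, Gsk3b became 0.21 and Trpm7 0.28 with probe sets averaged, and Csnk1d became 0.21 without probe sets ending in _s_at or _x_at, where Trpm7 became 0.14. No paired analysis was possible because each group holds 1 array.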

Other observations

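Some further genes of the pathway, chosen after their values were seen, differed in more than 1 probe set or by a larger amount. Kcnn4, which encodes a calcium-activated potassium channel that sustains calcium entry in T cells, had signals of 3398.4 in GFP-positive cells against 4437.8 in GFP-negative cells, a difference of −0.38 log2, and its other measured probe set gave −0.93. Fkbp1a, which encodes the binding protein of the drug tacrolimus, had 1408.4 and 1473.3, and its 3 other measured probe sets were lower in GFP-positive cells too, from −0.72 to −0.21. Homer2, which encodes a scaffold protein that competes with calcineurin for NFAT, had 132.5 and 45.6 and was at least 1.94-fold higher, a bound set by the floor.

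The 1450368_a_at probe set is annotated to both Wdr92 and Ppp3r1 and was left out of the gene comparisons. Its signals were 38.1 in GFP-positive cells against 15.8 in GFP-negative cells, below the floor on both arrays.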
